A study of Mus musculus with 10 samples.

Results

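The unfolded protein response is read here through 10 genes of its 3 branches, namely Hspa5, Creld2, Sdf2l1, Dnajb9, Herpud1, Xbp1, Atf4, Ddit3, Trib3 and Atf3. They were chosen by name, as 10 of the 24537 gene symbols in the count table, and all 10 passed the filter on low counts. RNA of 10 whole livers of male mice had been sequenced. Every mouse had received an adeno-associated virus of serotype 8 that expresses the Cas9 of Staphylococcus aureus from the TBG promoter, which is active in hepatocytes, and a guide RNA from the U6 promoter. The young control group held 3 mice aged 9 months, given a virus against Rosa26 at 7 months. The old control group held 3 mice aged 25 months, given the Rosa26 virus at 23 months. The old Cd44 knockout group held 4 mice aged 25 months, given a virus against Cd44 at 23 months, and its livers 1 and 2 carried guide 4 and its livers 3 and 4 carried guide 2. All groups thus shared the serotype, the nuclease and its promoter, and cells other than hepatocytes were not targeted by the promoter. The young and old control groups shared the Rosa26 locus and differed in age. The old knockout group differed from the old controls in the locus that the guide names, and from the young controls in locus and age.

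The endoplasmic reticulum folds the proteins that a cell secretes or places in its membranes. When unfolded proteins build up there, 3 membrane sensors respond. PERK (Eif2ak3) phosphorylates the translation factor eIF2alpha, which lowers protein synthesis in general and favours translation of the transcription factor ATF4, which in turn acts on Ddit3 (CHOP), Trib3, Atf3 and genes of amino acid supply. IRE1 (Ern1) splices the Xbp1 mRNA into the form that encodes an active transcription factor, and ATF6 is cut in the Golgi to release another one. XBP1 and ATF6 act on chaperones such as BiP (Hspa5) and on the machinery that removes misfolded proteins. Hepatocytes secrete most plasma proteins and depend on this machinery. Counts per gene give the total Xbp1 mRNA and cannot show its splicing, nor the phosphorylation or cleavage of the sensors.

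Total counts per liver ranged from 15821198 to 21710228, and values per liver are CPM, counts scaled to library size with edgeR's trimmed mean of M values (TMM) factors. Cd44, the targeted gene, had 12.6 ± 3.5 CPM in young controls (SD, n = 3), 23.4 ± 8.19 in old controls (SD, n = 3) and 19.6 ± 6.71 in the livers labelled knockout (SD, n = 4). Its log2 fold change between the livers labelled knockout and the old controls was -0.25 (SE 0.30, edgeR adjusted p = 0.896), so these counts did not separate the groups, and directions of the knockout comparison rest on the labels. Hepatocyte markers were at high levels in every liver, with a summed level of 10 genes between 89560 and 143500 CPM. Old control liver 3 lay apart from the other old livers, at 48 on the second principal component where the others lay between -33.2 and 23.4, and its library name lies outside the run of the other names. Knockout liver 1 lay apart from the other knockout livers in Hspa5, Creld2, Sdf2l1 and Dnajb9, and at 2.35 on the first component, between the young livers (-64.5 to -42.2) and the other knockout livers (20.8 to 29.8). Old control liver 2 had the highest summed markers of macrophages (2025 CPM), neutrophils (237 CPM) and T cells (50.7 CPM) of all 10 livers. The labels used here give no batch and no hour of collection, and do not say that each library is a separate animal, so p-values measure only the spread between these livers.

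Promoters carry the sites that the 3 branches are known to act on, and 4 of them are shown because they hold the elements to which the results below are set. All are the 250 bases before the RefSeq start on GRCm38.p6, written 5′ to 3′ in the direction of the gene, with the elements in capitals. Hspa5 (chr2:34771840-34772089, plus strand) holds the core TGACGTG of the element bound by XBP1 and ATF6 at positions -157 to -151 from the start, and the ER stress response element (ERSE), with the letters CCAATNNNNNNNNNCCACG, at -65 to -47. Creld2 (chr15:88819396-88819645, plus strand) holds an ERSE on the opposite strand, at -126 to -108. Herpud1 (chr8:94386179-94386428, plus strand) holds ERSE-II, which is ATTGG and CCACG with any 1 base between, at -52 to -42, and on the opposite strand the C/EBP-ATF element TGATGNAA, read by ATF4 and CHOP, at -112 to -105. Atf3 (chr1:191183334-191183583, minus strand) holds that element on its opposite strand, at -110 to -103.
Hspa5: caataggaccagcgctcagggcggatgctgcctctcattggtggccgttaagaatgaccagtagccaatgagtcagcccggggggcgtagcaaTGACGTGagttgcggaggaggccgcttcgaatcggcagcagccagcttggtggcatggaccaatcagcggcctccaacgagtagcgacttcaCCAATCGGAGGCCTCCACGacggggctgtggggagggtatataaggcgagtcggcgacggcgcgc
Creld2: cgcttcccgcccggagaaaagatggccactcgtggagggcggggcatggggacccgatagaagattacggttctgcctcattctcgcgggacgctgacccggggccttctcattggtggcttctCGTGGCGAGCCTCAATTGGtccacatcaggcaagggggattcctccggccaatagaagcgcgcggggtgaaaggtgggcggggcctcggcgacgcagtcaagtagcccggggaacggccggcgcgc
Herpud1: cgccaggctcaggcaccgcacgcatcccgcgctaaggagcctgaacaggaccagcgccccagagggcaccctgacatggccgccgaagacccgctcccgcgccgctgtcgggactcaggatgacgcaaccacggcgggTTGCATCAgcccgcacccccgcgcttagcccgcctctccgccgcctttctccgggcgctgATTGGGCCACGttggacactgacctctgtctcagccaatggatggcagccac
Atf3: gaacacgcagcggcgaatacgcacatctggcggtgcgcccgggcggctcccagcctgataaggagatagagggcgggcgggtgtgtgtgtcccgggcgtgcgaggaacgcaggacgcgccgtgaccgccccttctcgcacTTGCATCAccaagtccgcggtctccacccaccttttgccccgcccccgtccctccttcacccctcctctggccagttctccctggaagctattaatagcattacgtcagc

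Both strands of every RefSeq window of 300 bases, from 250 before to 50 after a start, were searched for these letters, and the 10 genes all had a window. ERSE stood in 39 of 32851 windows (0.119%), and among the 10 genes in Hspa5 and Creld2. ERSE-II stood in 12 windows (0.0365%), with Herpud1 the one gene of the 10. The core TGACGTG stood in 2.01% of windows and, of the 10 genes, in Hspa5. The C/EBP-ATF element stood in 3.97% of windows and, of the 10 genes, in Atf3, Herpud1 and Trib3, in Trib3 within the transcribed part. The cyclic AMP response element TGACGTCA stood in 1.79% of windows and in no window of the 10 genes. These motifs overlap nowhere in the 4 sequences shown. A match is a description of the letters and does not show a bound site.

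The chaperones and their helpers had the widest differences between livers. Hspa5 (chr2:34771970-34777547 in GENCODE M21) encodes BiP, the main HSP70 chaperone of the endoplasmic reticulum and the repressor of its sensors. It had 1914, 2800 and 2742 CPM in the young controls, and 505, 744 and 1283 CPM in the old controls. Knockout livers 1 to 4 had 2303, 735, 661 and 549.9 CPM. Every old control lay below every young control, and knockout liver 1 lay among the young livers while the other 3 knockout livers lay among the old controls. Its log2 fold change was -1.56 with age (SE 0.52, edgeR adjusted p = 0.0519), which missed the threshold of 0.05. Without old control liver 3 it was -2.0 (edgeR adjusted p = 0.0212). Leaving out any other young or old control liver gave no call, with an edgeR adjusted p of up to 0.149. Of 11 alternative settings 3 called Hspa5 lower, the others being no filter and only the groups compared (edgeR adjusted p = 0.0493 and 0.0416).

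Creld2, which encodes an ER-resident protein with disulfide exchange activity, had 156, 292 and 268 CPM in the young controls. Its levels were 33.8, 40.2 and 73.2 CPM in the old controls, 352 and 70.4 CPM in the guide 4 livers and 36.8 and 34.2 CPM in the guide 2 livers. Knockout liver 1 was thus the highest of all 10 livers, and the other 6 old livers all lay below the young ones. The young mean was 4.87 times the old control mean, the widest ratio of the 10 genes. With age the log2 fold change of Creld2 was -2.28 (SE 0.79, edgeR adjusted p = 0.0592), and without old control liver 3 it was -2.69 (edgeR adjusted p = 0.0456). Leaving out any other young or old control liver gave no call, with an edgeR adjusted p of up to 0.165. Of 11 alternative settings 3 called Creld2 lower. The others were DESeq2 (DESeq2 adjusted p = 0.0425) and only the groups compared (edgeR adjusted p = 0.0351).

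Sdf2l1 encodes a cofactor that keeps BiP and its DNAJ partner in a soluble, active state. The young controls had 84.5, 127 and 144 CPM and the old controls 24.4, 39.8 and 53.6 CPM. Knockout livers 1 and 2 had 148 and 57.4 CPM, and livers 3 and 4 had 24.8 and 31.1 CPM. As with Creld2, knockout liver 1 was the highest of all 10 livers and the other old livers lay below all the young ones. The log2 fold change with age was -1.59 (SE 0.58, edgeR adjusted p = 0.0668), and -1.89 without old control liver 3 (edgeR adjusted p = 0.0481). Leaving out any other young or old control liver gave no call, with an edgeR adjusted p of up to 0.159. Of 11 alternative settings 2 called Sdf2l1 lower, the other being only the groups compared (edgeR adjusted p = 0.0358).

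Dnajb9 encodes ERdj4, a BiP co-chaperone that takes part in degradation and restrains IRE1. Levels of Dnajb9 were 140.4, 172 and 138 CPM in the young controls and 23.3, 45.9 and 85.4 CPM in the old controls. The guide 4 livers had 104.5 and 35.0 CPM and the guide 2 livers 45.5 and 27.4 CPM. All 7 old livers lay below all 3 young ones, knockout liver 1 included. Dnajb9 fell with age by 1.54 (log2, SE 0.51, edgeR adjusted p = 0.0494), close to the threshold. That call was kept in 3 of 11 alternative settings, in which the adjusted p ranged from 0.0118 to 0.143.

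Herpud1 encodes HERP, a membrane protein of ER-associated degradation, and its promoter is the one shown with ERSE-II and a C/EBP-ATF element. It had 896, 747 and 729 CPM in the young controls and 279.9, 308 and 254 CPM in the old controls. Knockout livers 1 to 4 had 411, 254, 306 and 261 CPM. The old livers all lay well below the young ones, and knockout liver 1, though the highest of the 7, stood at 0.52 of the young mean. Herpud1 fell with age by 1.49 (log2, SE 0.20, edgeR adjusted p = 0.00667). The call was kept in all 11 alternatives, with log2 values between -1.57 and -1.18. In old knockout against young livers Herpud1 fell by 1.36 (log2, SE 0.18, edgeR adjusted p = 0.00661), also kept in all 12 alternatives run.

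Xbp1, the target of IRE1 and itself a transcription factor, had 480, 757 and 589.5 CPM in the young controls. The old controls had 198, 223 and 384 CPM, and knockout livers 1 to 4 had 318, 295, 197 and 229.5 CPM. No old liver reached the lowest young one, and knockout liver 1 did not stand apart here. Xbp1 fell with age by 1.18 (log2, SE 0.28, edgeR adjusted p = 0.0158), and by 1.23 in old knockout against young livers (log2, SE 0.25, edgeR adjusted p = 0.0203). The age call was lost without young control liver 2 (edgeR adjusted p = 0.0723) and without old control liver 2 (edgeR adjusted p = 0.0648). The call against young livers was lost without young control liver 2 or 3, or knockout liver 3 or 4, with edgeR adjusted p = 0.0581 to 0.1.

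The genes downstream of PERK did not share this pattern. Atf4 encodes the transcription factor of that branch, whose output is set largely by translation. It had 133, 169 and 148 CPM in the young controls, 174, 129 and 111 CPM in the old controls and 129.9, 163.5, 122 and 168 CPM in knockout livers 1 to 4. These groups overlapped throughout. Its log2 fold change with age was -0.12 (95% interval -0.54 to 0.30, edgeR adjusted p = 0.672), and it turned to 0.20 when total counts alone set the scale.

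Ddit3 encodes CHOP, a factor tied to cell death under prolonged stress. GENCODE lists a second, overlapping locus of the same name, whose reads cannot be told apart here. Ddit3 had 12.4, 14.5 and 14.5 CPM in the young controls and 15.6, 9.57 and 5.91 CPM in the old controls. Knockout livers 1 to 4 had 13.5, 11.4, 14.5 and 18.1 CPM. Old control liver 3 was the lowest of all 10 livers, the reverse of its place among old controls for Hspa5. The log2 fold change of Ddit3 with age was -0.41 (95% interval -1.05 to 0.23, edgeR adjusted p = 0.32), and -0.83 without old control liver 1 (edgeR adjusted p = 0.0347).

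Trib3, a pseudokinase that is induced by ATF4 and CHOP and restrains them, had 7.34, 6.79 and 4.88 CPM in the young controls. The old controls had 13.6, 9.35 and 6.11 CPM, the guide 4 livers 7.96 and 9.99 CPM and the guide 2 livers 17.4 and 12.7 CPM. Old control liver 3 was the one old liver within the young range. Of the 10 genes, Trib3 was the one with a positive log2 fold change with age, 0.61 (95% interval -0.12 to 1.34, edgeR adjusted p = 0.201). Against young livers the old knockout livers gave 0.92 (95% interval 0.23 to 1.62, edgeR adjusted p = 0.0752). Trib3 was called higher there by DESeq2 (adjusted p = 0.0354), and by edgeR under total counts alone (adjusted p = 0.0246) and with only these groups (adjusted p = 0.0267).

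Atf3, a stress-induced factor of the same family as ATF4, was the least abundant per length. It had 5.39, 2.31 and 3.86 CPM in the young controls, 4.13, 3.56 and 3.34 CPM in the old controls and 2.32, 2.62, 3.01 and 4.26 CPM in knockout livers 1 to 4. The groups overlapped, and the log2 fold change with age was -0.07 (95% interval -0.76 to 0.62, edgeR adjusted p = 0.89).

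**Figure D1:**
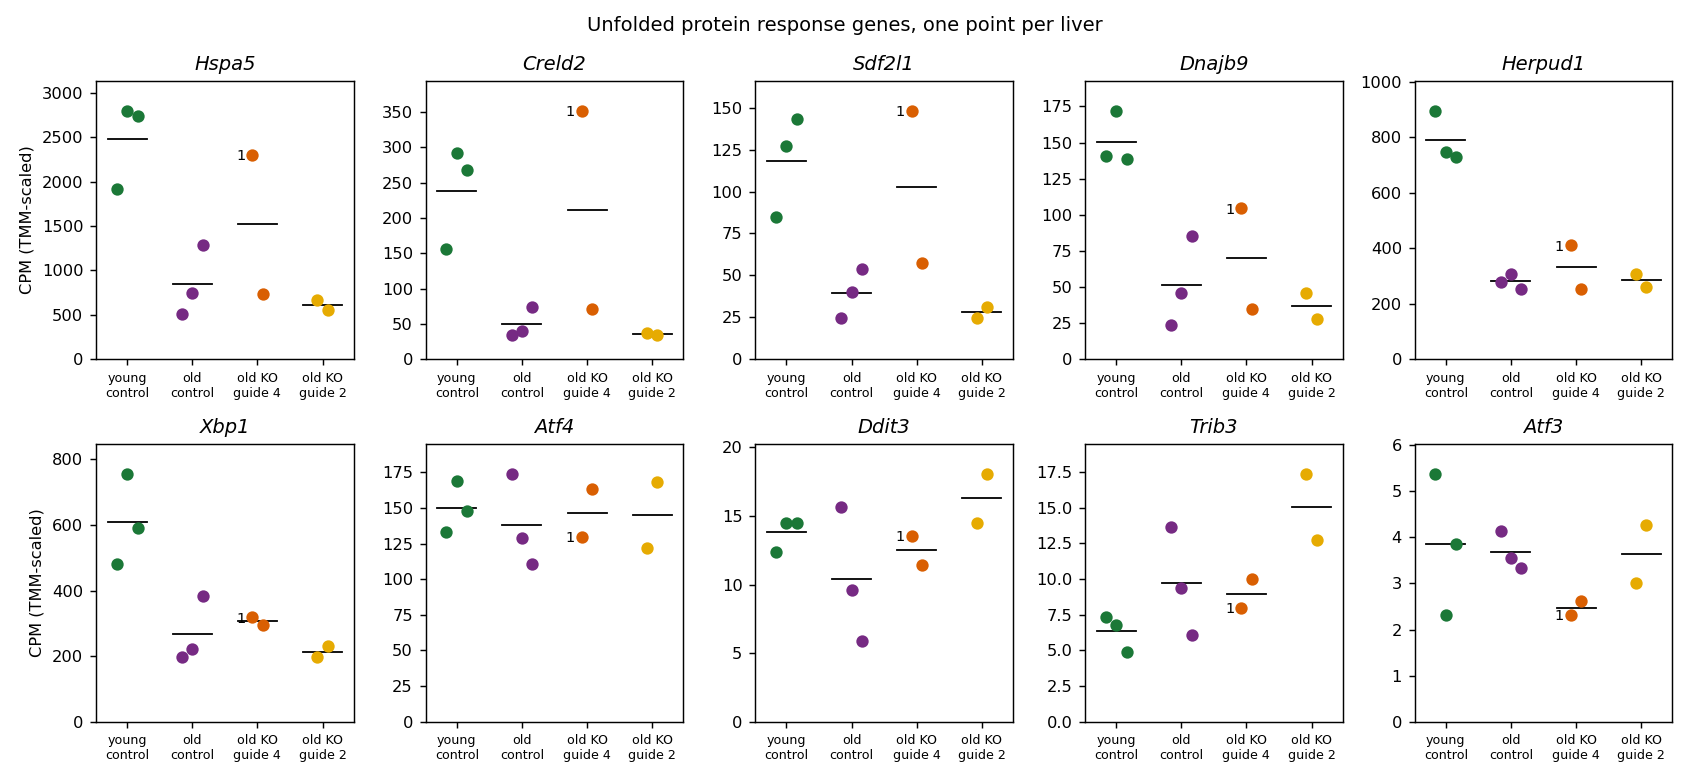
Level of each of the 10 genes, in TMM-scaled CPM on the vertical axis, with 1 point per liver and a line at the group mean; knockout livers are split by guide, and knockout liver 1 carries the digit 1. In Hspa5, Creld2, Sdf2l1, Dnajb9, Herpud1 and Xbp1 the old controls lie below the young controls, and knockout liver 1 lies within or above the young range in Hspa5, Creld2 and Sdf2l1.

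Levels were set beside each other per kilobase of exon, as CPM per kb. In the young controls the order ran from Hspa5 at 588 ± 120 through Herpud1 at 339 ± 39, Xbp1 at 187 ± 43, Creld2 at 175 ± 53, Sdf2l1 at 107 ± 27 and Atf4 at 63.6 ± 7.7 (SD, n = 3). Dnajb9 at 58.9 ± 7.4, Ddit3 at 8.05 ± 0.72, Trib3 at 2.98 ± 0.61 and Atf3 at 1.79 ± 0.71 followed (CPM per kb, SD, n = 3). The SD ranges overlapped for Xbp1 and Creld2, Creld2 and Sdf2l1, Atf4 and Dnajb9, and Trib3 and Atf3. In the old controls Atf4, at 58.5 ± 14 CPM per kb, stood above Creld2 at 35.9 ± 15, Sdf2l1 at 35.4 ± 13 and Dnajb9 at 20.2 ± 12 (SD, n = 3). The SD ranges of Atf4 and Creld2, and of Creld2 and Sdf2l1, overlapped there, so the order of these genes in old controls is not settled.

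The first comparison asked how old and young control livers differ. Of the 10 genes 3 fell with age (Herpud1, Xbp1 and Dnajb9) and none rose, beside 8.66% of all 13909 genes called lower, 14.1% called higher and 22.8% called in all. In 6 of the 10 (Hspa5, Creld2, Sdf2l1, Dnajb9, Herpud1 and Xbp1) every old control lay below every young control, a placement found in 18% of all genes, and 6 had an unadjusted p under 0.05, beside 38.5% of all genes. The median log2 fold change of the 10 was -1.34, and that of all genes 0.04. Without old control liver 3 those same 6 genes were called lower, beside 17% of all genes called lower and 37.7% called in all. Without young control liver 2, or without old control liver 2, 1 gene (Herpud1) was called. Scaling by total counts alone raised the median of all genes to 0.34 and split the calls into 3872 higher and 354 lower (2.55%, of 30.4% called in all), against 1967 and 1205 with TMM. Under that scaling the 6 genes kept negative log2 values, with Xbp1 and Herpud1 called, and Atf4 and Atf3 turned positive.

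Marker RNA of other cell types differed between the same groups. Of the markers tested, 9 of 11 macrophage genes, 7 of 9 endothelial, 5 of 8 stellate, 5 of 7 plasma and B cell, 5 of 8 T cell and 4 of 4 neutrophil genes rose with age, and 3 of 10 hepatocyte genes (Hnf4a, Serpina1a and Tat) fell. Of all genes 14.1% were called higher and 8.66% lower. Old control liver 2 was far above the other old controls in some of these, with summed neutrophil markers of 14.8, 237 and 13.2 CPM and T cell markers of 10.9, 50.7 and 5.29 CPM in old controls 1 to 3. The summed macrophage markers were 293.9 to 434 CPM in young and 574 to 2025 CPM in old controls. The summed hepatocyte markers were 113800 to 143500 CPM in young and 89560 to 124100 CPM in old controls, with old control liver 3 at 124100. In whole liver, fewer cells of a type and less RNA per cell cannot be told apart, and the part of composition in the age differences was not tested. Core clock genes differed too, in that Per3 and Dbp rose by 2.09 and 2.18 and Cry1 fell by 0.89 (log2, edgeR adjusted p = 0.0133, 0.0263 and 0.0129). Dbp had 13.4, 2.64 and 24.7 CPM in the young and 86.4, 71.6 and 26.7 CPM in the old controls, with old control liver 3 nearest to the young ones. The part of the hour of collection was not tested.

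The knockout comparison asked whether the livers labelled knockout differ from old controls of the same age. None of the 10 genes was called by edgeR, beside 0% of all genes, and 0 of the 10 had an unadjusted p under 0.05, as 916 of all genes did (6.59%). DESeq2 called 7 of all genes and 0 of the 10. All 10 genes overlapped between the groups, where 6.1% of all genes did not. The log2 differences had 95% intervals of -0.72 to 1.38 for Hspa5, -0.29 to 2.95 for Creld2, -0.61 to 0.51 for Xbp1, -0.26 to 0.53 for Herpud1 and -0.31 to 0.48 for Atf4. The widest value, 1.33 for Creld2 (SE 0.74, edgeR adjusted p = 0.779), was -0.06 without knockout liver 1, and that of Hspa5 went from 0.33 to -0.38.

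Old knockout livers were also set against the young controls, a comparison that shares its young livers with the age comparison. Age and targeted locus differ together there, with no young knockout group, so their parts cannot be told apart. Of the 10 genes 2 fell, Herpud1 and Xbp1, and none rose, beside 4.97% of all genes called lower, 6.64% called higher and 11.6% called in all, with 33.3% at an unadjusted p under 0.05. All 4 knockout livers lay below every young liver in Dnajb9, Herpud1 and Xbp1, beside 18.8% of all genes. Under total counts alone the calls over all genes were 3332 higher and 253 lower, against 923 and 691 with TMM. Without knockout liver 1 the count was 6, all lower, beside 5.64% of all genes called lower and 11.9% called in all. In that fit the log2 fold change was -1.94 for Hspa5 (edgeR adjusted p = 0.0134), -2.34 for Creld2 (edgeR adjusted p = 0.0132), -1.65 for Sdf2l1 (edgeR adjusted p = 0.026) and -2.06 for Dnajb9 (edgeR adjusted p = 0.0188). With all 4 knockout livers the values of these genes were -1.23, -0.95, -0.86 and -1.50, none of them called. The count was 1, Herpud1, without young control liver 2 or 3 or knockout liver 3 or 4. Single livers thus set how many of these genes passed the threshold, and Herpud1 passed in each case.

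The 2 guides were compared directly, with 2 livers each. No gene of the 10 was called by edgeR, beside 0.0212% of all genes, and 3 had an unadjusted p under 0.05, beside 4.4% of all genes. Both guide 4 livers lay above both guide 2 livers in Hspa5, Creld2, Sdf2l1 and Xbp1, 4 of the 10 genes, beside 18.1% of all genes. Both lay below both guide 2 livers in Trib3, Ddit3 and Atf3. The share of all genes placed that way was not counted, so these genes are only described. The log2 difference was 2.57 for Creld2 (edgeR adjusted p = 0.451) and 1.88 for Sdf2l1 (edgeR adjusted p = 0.438), and DESeq2 called Sdf2l1 (DESeq2 adjusted p = 0.011). Without knockout liver 1 the differences were 0.99 and 1.04, from a single guide 4 liver assumed to vary like the other livers.

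**Figure D2:**
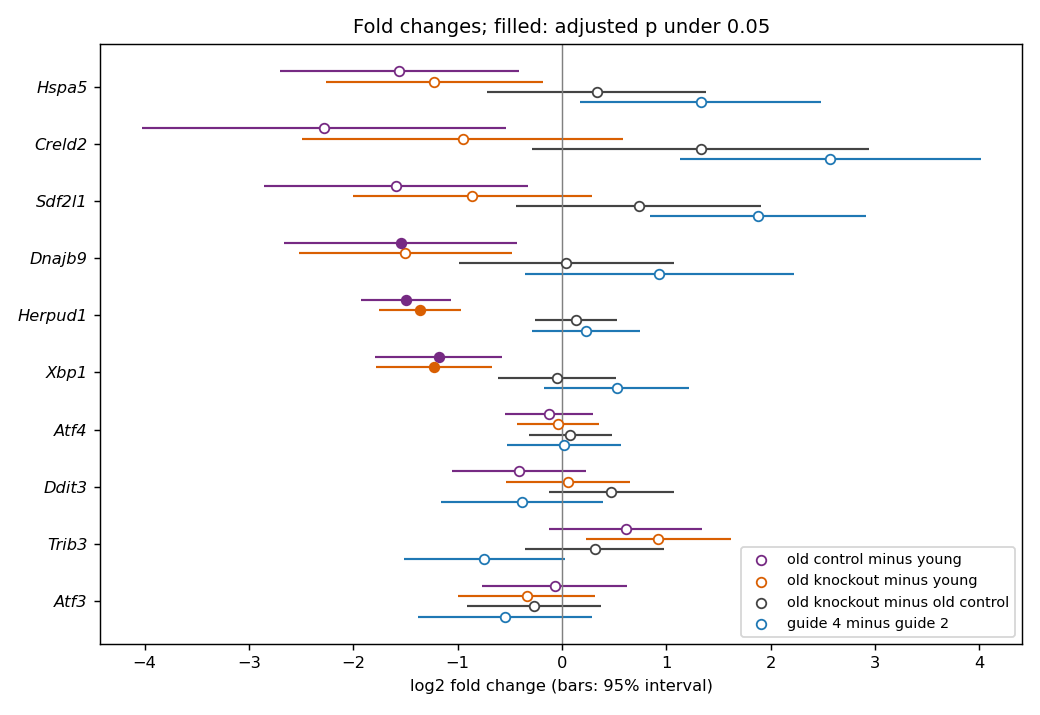
Log2 fold change of the 10 genes in the 4 comparisons on the horizontal axis, with 95% intervals from edgeR's fits; filled points have an adjusted p under 0.05. Herpud1, Xbp1 and Dnajb9 are filled for age and Herpud1 and Xbp1 for old knockout against young, and the intervals of Atf4, Ddit3 and Atf3 cross 0 in all 4 comparisons.

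Knockout liver 1 was singled out after its values were seen, so what follows describes that liver without a test. Against the mean of the other 3 knockout livers it had 7.47 times the Creld2 level, 3.93 times the Sdf2l1, 3.55 times the Hspa5 and 2.91 times the Dnajb9 level. For Herpud1 and Xbp1 the ratios were 1.5 and 1.32, and for Trib3 0.596. Against the young mean its levels were 1.47 for Creld2, 1.25 for Sdf2l1, 0.927 for Hspa5 and 0.696 for Dnajb9, but 0.52 for both Herpud1 and Xbp1. Hspa5, Creld2 and Sdf2l1 of this liver thus lay within or above the young range, while Dnajb9, Xbp1 and Herpud1 lay below it.

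The same liver held the highest level among the 7 old livers in 18 of 24 listed chaperone and folding genes, 10 of 16 genes of ER-associated degradation and 14 of 22 genes of translocation and early transport. That was so for 11.6% of all genes. The old controls were highest in 22.4%, 17.5% and 23.8% of all genes, and knockout livers 2 to 4 in 5.44%, 8.32% and 10.9%. For ATF4 and CHOP targets it was so in 3 of 28. The median log2 ratio of knockout liver 1 to the other knockout livers was 0.74 for the chaperone list and -0.01 for all genes. Derl3, which encodes a channel component of degradation, had 52.9 CPM in this liver, 10.3, 2.21 and 1.93 CPM in knockout livers 2 to 4 and 7.96 to 34.3 CPM in the young controls. Pdia4, a disulfide isomerase, had 675 CPM in knockout liver 1, against 432.5 to 586 CPM in the young controls and 193 to 257 CPM in the other knockout livers.

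Some other values of knockout liver 1 also stood at an edge of the old livers. Its total of 16443280 counts was the second lowest of the 10, and its TMM factor was 1.05. Its summed hepatocyte markers were 97530 CPM, against up to 99310 in the other knockout livers. Plasma and B cell markers summed to 32.0 CPM, the highest of the knockout livers (others 22.7 to 26.9 CPM) and second to the 36.1 CPM of old control liver 2. In knockout liver 1 Jchain alone had 18.4 CPM of that sum. Among the 7 old livers, knockout liver 1 was the highest in 1 of these 7 genes and knockout liver 2 in 5. Plasma cells also hold much endoplasmic reticulum, and their part in the chaperone levels was not tested. Neutrophil markers summed to 7.21 CPM, the lowest of the 7 old livers. Cytosolic heat shock genes summed to 2076 CPM, the highest of the 7 old livers, and below the 3390 to 4198 CPM of the young controls. Among clock genes Per1 was at 14.3 CPM, the lowest of all 10 livers, against 30.2 to 33.3 CPM in the other knockout livers. Per2 (37.1 CPM) and Ciart (6.80 CPM) were the highest of the 10, and Dbp (78.3 CPM) lay within the other knockout livers (74.3 to 91.0 CPM). The part of the heat shock and clock differences was not tested.

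**Figure D3:**
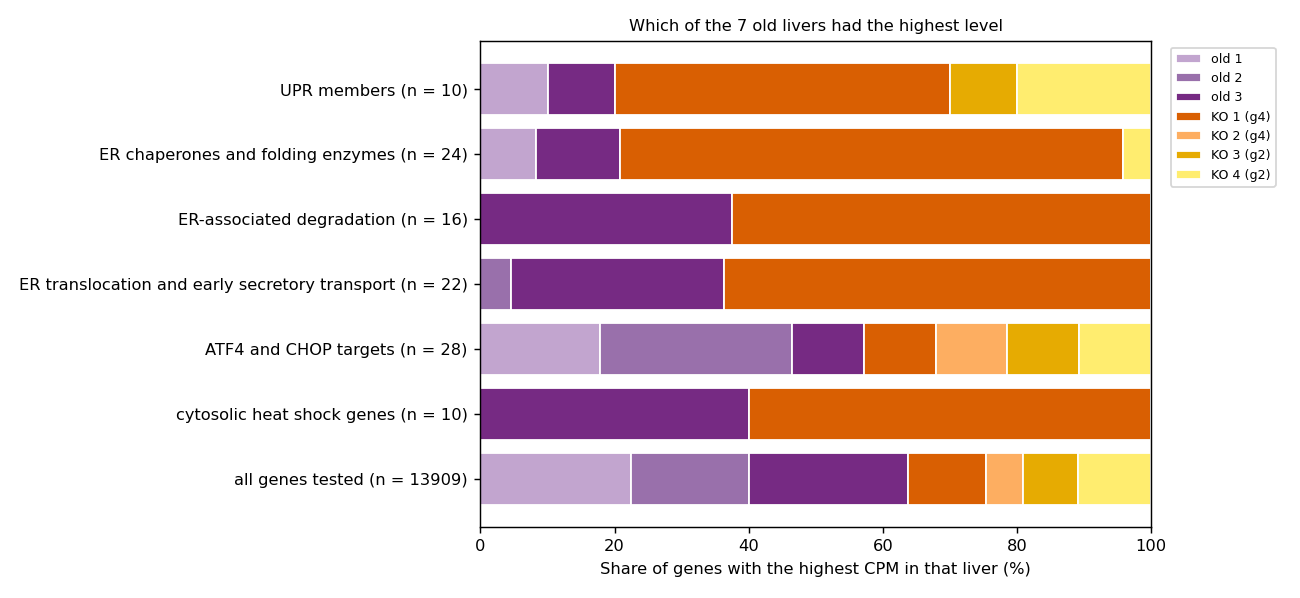
Share of genes of each list, in percent on the horizontal axis, whose highest CPM among the 7 old livers was in the liver given by the colour. Knockout liver 1 takes 18 of 24 chaperone genes and 10 of 16 degradation genes, against 11.6% of all 13909 genes.

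Wider lists of the pathway were counted in the same way. Among the 10 sensors and transducers none was called with age. All 10 had negative log2 values (median -0.34), 7 of them when total counts alone set the scale. Beside 17% of all genes, 6 were called lower without old control liver 3. That liver was the highest of the 7 old livers in 9 of the 10 sensors, and knockout liver 1 in 1. PERK (Eif2ak3) had 24.4, 21.6 and 22.2 CPM in the young and 10.9, 15.77 and 19.4 CPM in the old controls, and its age difference was -0.56 in log2 (edgeR adjusted p = 0.0658). In old knockout livers it had 17.2, 12.0, 12.9 and 12.9 CPM, all below the young ones. Against young livers Eif2ak3 fell by 0.73 (log2, edgeR adjusted p = 0.0357) and Creb3l2, a membrane-bound relative of ATF6, fell by 1.89 (log2, edgeR adjusted p = 0.0226). These were 2 of the 10 sensors, beside 4.97% of all genes called lower. Under total counts alone Creb3l2 was called and Eif2ak3 was not, beside 253 of all 13909 genes called lower. In that setting 7 of the 10 log2 values were negative.

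Of the 24 chaperones and folding enzymes 4 fell with age and none rose, beside 8.66% of all genes called lower, with a median log2 value of -0.67. Ero1lb, an oxidase that supplies disulfide bonds, fell by 1.01 (log2, edgeR adjusted p = 0.0177). Dnajb11, a BiP co-chaperone whose window also holds ERSE-II, fell by 1.23 (log2, edgeR adjusted p = 0.0274). Txndc11 and the disulfide isomerase Pdia6 fell by 0.85 and 0.83 (log2, edgeR adjusted p = 0.0392 and 0.0396). Under total counts alone 2 of the 24 were called lower, Ero1lb and Dnajb11, beside 2.55% of all genes. In that setting 20 of the 24 log2 values were negative, with a median of -0.38. Old controls all lay below young controls in 18 of the 24, beside 18% of all genes. Without old control liver 3 the count called lower was 17 of the 24, in a fit that called 17% of all genes lower.

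Against young livers 0 of the 24 were called in the old knockout group, beside 11.6% of all genes. Without knockout liver 1 it was 13, all lower, beside 5.64% of all genes called lower. Knockout livers 2 to 4 all lay below the young controls in 21 of the 24, beside 23.9% of all genes. Manf, a secreted ER stress factor, had 279, 424 and 383 CPM in the young controls, 116, 141 and 186 CPM in the old controls and 437, 166, 116 and 116 CPM in knockout livers 1 to 4.

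ER-associated degradation had 6 of 16 genes lower with age and none higher, beside 8.66% of all genes called lower. All 16 log2 values were negative (12 under total counts alone), with a median of -0.49. Syvn1, the ubiquitin ligase HRD1, had 369, 732.5 and 593.5 CPM in the young and 109, 105 and 151 CPM in the old controls. It fell by 2.22 (log2, SE 0.52, edgeR adjusted p = 0.0155). Knockout liver 1 had 434 CPM of Syvn1, within the young range, and the other knockout livers had 138, 100.5 and 112 CPM. The mannosidase-like Edem3 fell by 0.93 (log2, edgeR adjusted p = 0.0147) and the conjugating enzymes Ube2g2 and Ube2j1 by 0.98 and 0.50 (log2, edgeR adjusted p = 0.0212 and 0.0355). Of the 22 genes of translocation and early transport 2 fell, a share near the 8.66% of all genes called lower, namely Mcfd2 and Sec13, by 0.59 and 0.45 (log2, edgeR adjusted p = 0.0232 and 0.0471). Without old control liver 3 the counts were 10 of 16 and 12 of 22, beside 17% of all genes called lower. Under total counts alone they were 3 and 0, beside 2.55%.

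ATF4 and CHOP targets split in both directions. Of 28 tested, 3 rose and 5 fell with age, beside 14.1% of all genes called higher and 8.66% called lower. Under total counts alone 3 rose and 1 fell, beside 2.55% of all genes called lower and 30.4% called in all. The median of -0.10 turned to 0.21. Stc2, the remaining listed gene, had at most 9 counts and was not tested. The very low density lipoprotein receptor gene Vldlr rose by 1.63 (log2, edgeR adjusted p = 0.0185) and the pro-apoptotic Bbc3 by 0.97 (log2, edgeR adjusted p = 0.0212). Ddit4, an inhibitor of mTORC1, fell by 1.22 (log2, edgeR adjusted p = 0.0147), Cebpg, a partner of ATF4, by 0.52 (log2, edgeR adjusted p = 0.0151), and Cth, of cysteine synthesis, by 0.75 (log2, edgeR adjusted p = 0.0192). In old knockout against young livers 4 fell and none rose, beside 4.97% of all genes called lower and 6.64% called higher. Under total counts alone 1 fell (Asns) and 3 rose (Bbc3, Slc7a5 and Vldlr). Over all 13909 genes that scaling called 253 lower and 3332 higher. Without knockout liver 1, 3 fell and 1 rose, beside 5.64% of all genes called lower and 11.9% called in all. Asns, the asparagine synthetase, had 7.41, 3.36 and 2.34 CPM in the young controls and 1.05, 0.654, 0.236 and 0.233 CPM in knockout livers 1 to 4, with the groups apart, and fell by 3.01 (log2, edgeR adjusted p = 0.0165). Of the 5 other eIF2alpha kinases and phosphatases none was called in the 4 comparisons. Without old control liver 3, Eif2ak1, Eif2ak2 and Ppp1r15b were called lower with age, beside 17% of all genes. Under total counts alone Eif2ak4 was called higher in old knockout against young livers, beside 3332 of all 13909 genes called higher.

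**Figure D4:**
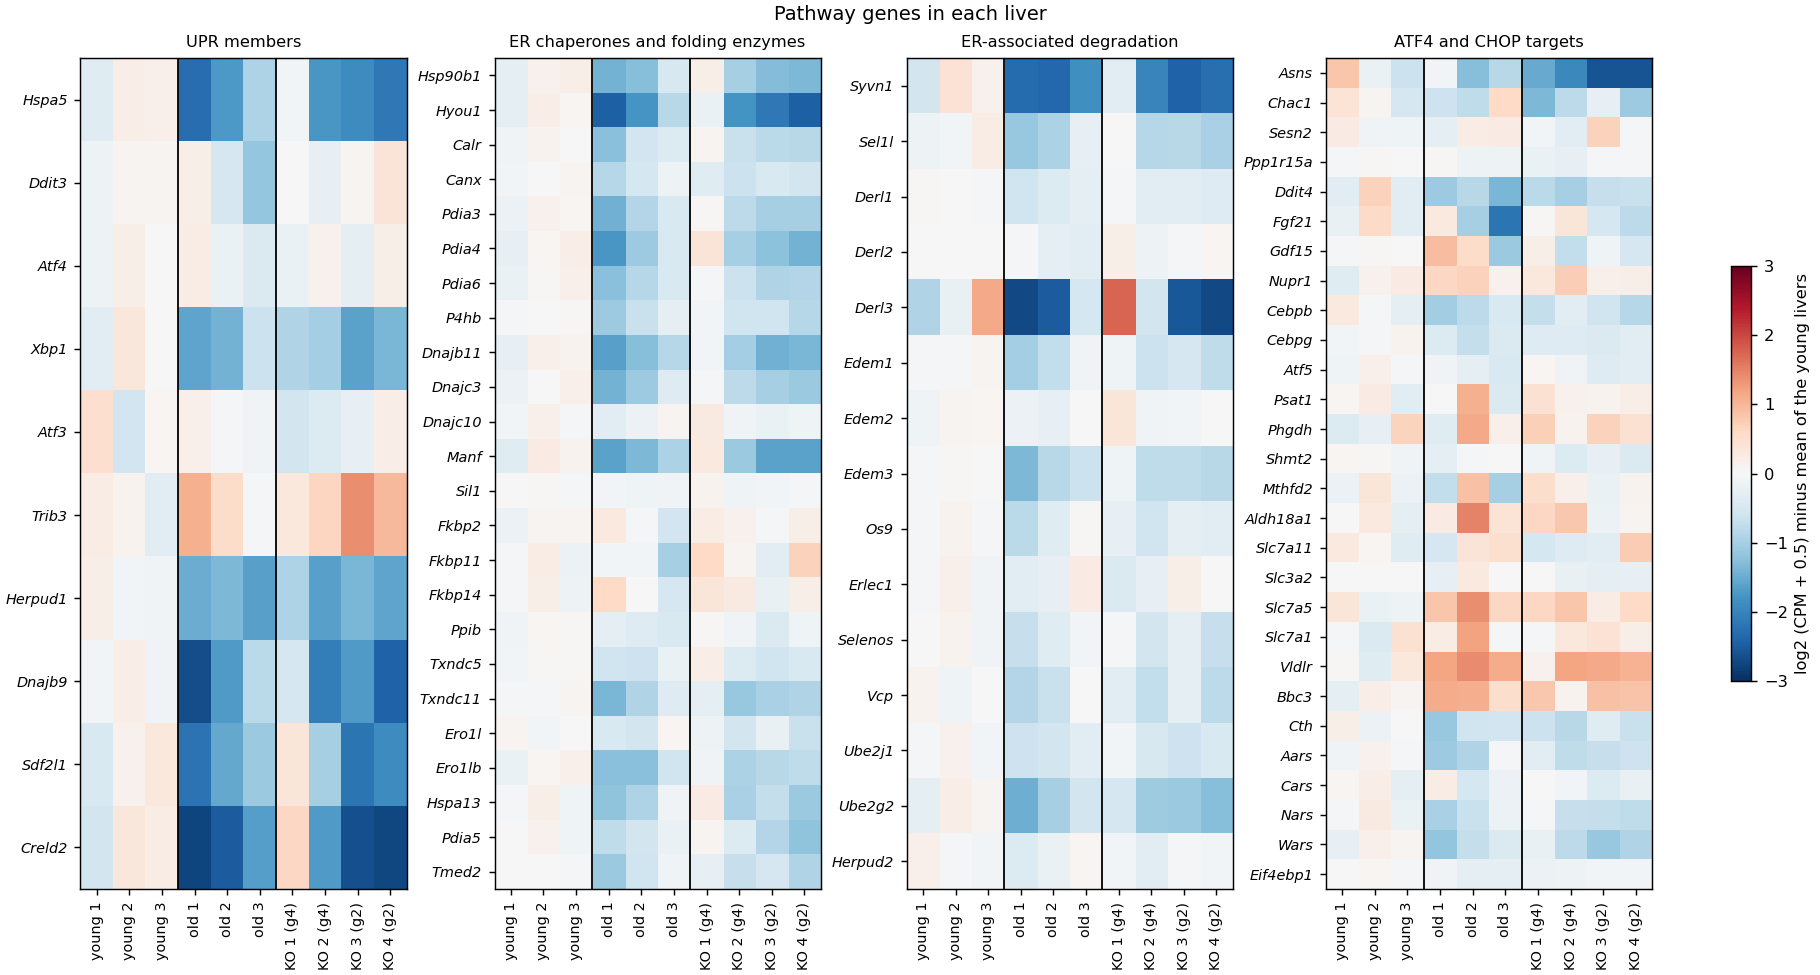
Log2 (CPM + 0.5) of each gene minus the mean of the 3 young controls, in colour with the scale ending at -3 and 3, by liver in columns and by list in panels. Blue (lower than young) fills the old livers for most chaperone and degradation genes, more weakly in old control liver 3 and knockout liver 1, and the ATF4 and CHOP targets show both colours.

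Genes with an ERSE window were looked at after the values above were seen, so they are described without a test. Of 37 such genes 23 were tested, and 10 of these stood in the lists (Hspa5, Creld2, Hsp90b1, Calr, Canx, Pdia6, Dnajc3, Ero1lb, Syvn1 and Derl3). All 10 had negative log2 values with age (median -1.01), and in 9 of them, all but Canx, knockout liver 1 was the highest of the 7 old livers. Both traits were common in the lists as a whole. Negative values were found in 23 of 24 chaperone and 16 of 16 degradation genes. Knockout liver 1 was highest in 18 of the 24 and 10 of the 16, beside 11.6% of all genes. Of the 13 ERSE genes outside the lists 6 had negative values (median 0.15), and knockout liver 1 was the highest in 2. Among all genes 47.6% had negative values. One of these, Alg12, which encodes a mannosyltransferase of the endoplasmic reticulum, was called lower with age (log2 -0.95, edgeR adjusted p = 0.034) and had 21.2 CPM in knockout liver 1 against at most 10.6 CPM in the other knockout livers. Several of the 13 were near the filter, such as Xlr3c at 0.346 CPM in the young controls, and their signs carry little.

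Heat shock genes listed as cytosolic, a separate chaperone system under the factor HSF1, also fell with age, though not every encoded protein is cytosolic. All 10 were called lower, among them Hspa1b by 2.90, Hspa1a by 2.56 and Hspa8 by 1.24 (log2, edgeR adjusted p = 0.00648, 0.00667 and 0.00717), beside 8.66% of all genes. Under total counts alone it was 9 of 10, beside 2.55%. In old knockout against young livers 7 of 10 fell, beside 4.97% of all genes, and 10 of 10 without knockout liver 1, beside 5.64%. Of the 24 ER chaperones and folding enzymes 0 were called with every knockout liver kept. Knockout liver 1 reached the lowest young liver in 3 of the 10 heat shock genes and in 19 of the 24 ER genes. It did so in 9501 of all 13909 genes. Lower levels with age were thus measured in listed chaperones within and outside the endoplasmic reticulum.

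**Figure D5:**
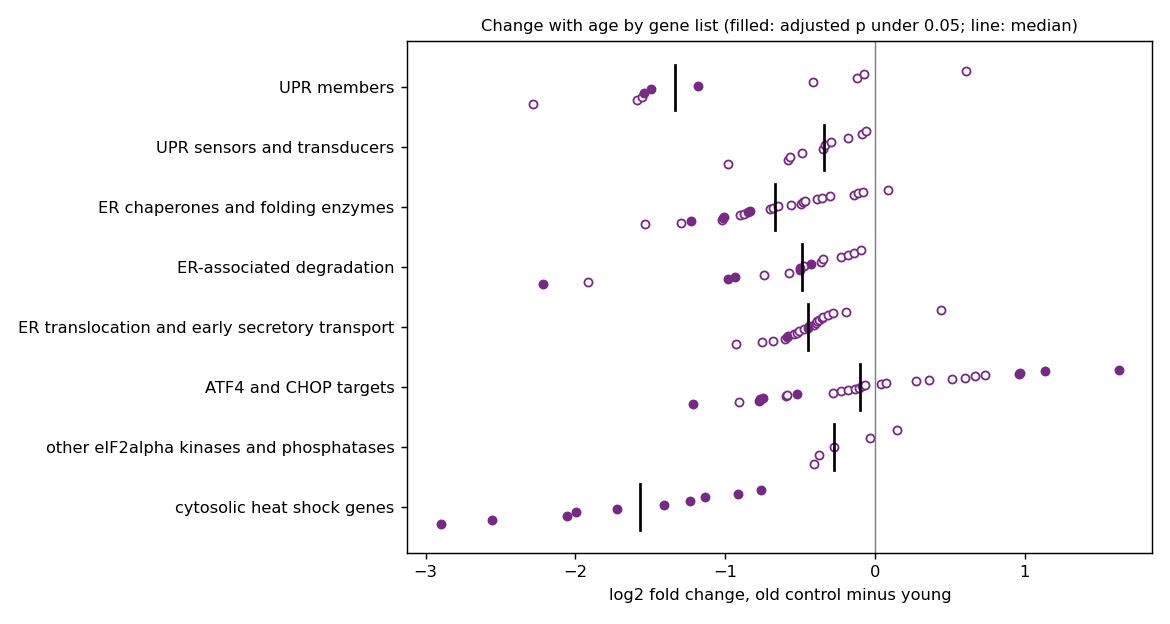
Log2 fold change with age of each listed gene on the horizontal axis, 1 point per gene, by list, with filled points at an adjusted p under 0.05 and a line at the list's median. The median is -1.34 for the 10 genes, -0.67 for chaperones and folding enzymes, -0.10 for ATF4 and CHOP targets and -1.57 for cytosolic heat shock genes.

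Likeness over the 10 livers was taken as Pearson's r of log2 CPM with each of the 13909 genes, as a description, since the points share 3 groups and their libraries. Creld2 was most like Manf (0.997) and Hspa5 most like Hyou1 (0.994), another ER chaperone of the HSP70 family. Sdf2l1 was most like Manf (0.982), Dnajb9 most like Fndc3a (0.988), Xbp1 most like Mical2 (0.984) and Herpud1 most like Tmem185b (0.98). Ddit3 was most like Fam195a (0.987), Atf4 most like Surf2 (0.968), Trib3 most like Ddit4l (0.976) and Atf3 most like Krt19 (0.853). Between Hspa5 and the other 5 genes of its pattern r lay between 0.82 and 0.97, whereas it was -0.84 with Trib3, -0.16 with Atf4 and -0.08 with Ddit3.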

How the data were processed

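RNA was measured in 10 whole livers. The deposited file holds raw counts, as whole numbers for each gene symbol in each liver, without normalization by the authors. Per the submitters' processing notes, FastQC 0.11.8, Trim Galore 0.4.4, STAR 2.5.3a and HOMER were used with the mm10 build; the gene models and strand setting are not given in the sources used here, so overlapping genes cannot be separated. Per the labels' protocols, libraries held polyadenylated RNA and paired reads of 75 bases.

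Counts were tested with edgeR 4.0.16 in R 4.3.3: filterByExpr (minimum count 10, minimum total 15), TMM factors, 1 coefficient per group over all 10 livers, the quasi-likelihood test and Benjamini-Hochberg adjustment over 13909 genes (14153 in the fit with separate guides), with calls made below an adjusted p of 0.05. Standard errors were the log2 value divided by the square root of F, and log2 CPM had a prior count of 2. Total counts of 15821198 to 21710228 limit counting error only. Livers of the same group were compared in pairs, and their chi-square per degree of freedom (21.7 to 180) was above that of sampling noise. Each library was counted as 1 replicate, though this value cannot show that the libraries come from separate animals. The fits were checked on simulated counts with 200 changed genes. Alternatives were DESeq2 1.42.0, other scaling, no filter, only the groups compared and leaving out each liver; those for the pathway lists were added after seeing the data.

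The 10 genes, the lists (219 entries, 3 not in the table) and the tests were chosen with earlier results of these data known. Named were the 10 genes, Cd44, up to 5 called genes per list and comparison in order of adjusted p (up to 3 for heat shock and clock genes) and the most similar genes. The age values of Eif2ak3 and the levels of Manf, Derl3, Pdia4 and the ERSE genes were named after they were seen. The values of 1 listed gene are not reported here, though list counts include it. Positions and exon lengths came from GENCODE M21 (GRCm38) by symbol, and promoters from RefSeq (GRCm38.p6).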

Additional observations from a re-analysis of the deposited data

Results flagged for a closer look

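Among the 4 knockout livers, the gap between an extreme liver and its nearest neighbour, as a share of the group's range, was compared with Dixon's 95% critical value for 4 values in 33 genes, of which chance alone would pass about 1.6. Hspa5 passed at 0.894, with 2303 CPM in knockout liver 1 against 549.9 to 735 CPM in the others. Creld2 passed at 0.886 (352 CPM against 34.2 to 70.4), Syvn1 at 0.888 (434 CPM against 100.5 to 138), Edem3 at 0.919 (38.7 CPM against 23.8 to 25.0) and Eif2ak3 at 0.833 (17.2 CPM against 12.0 to 12.9), each with knockout liver 1 as the high liver. Bbc3 passed at 0.889 with knockout liver 2 as the low liver (8.68 CPM against 14.5 to 15.3). The values of knockout liver 1 were known when these genes were compared, so passing describes that liver and is no independent test. The genes are not independent of each other, and 5 of the 6 values come from 1 liver.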

How the results depend on the processing

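No paired analysis was possible because no label numbers the livers so that animals could be matched across groups. Of 440 alternative values of the 10 genes, 382 kept direction and side of the threshold, 19 newly passed it, 14 no longer passed it and 25 changed sign, all 25 in values that were not called. Leaving out 1 liver at a time, the genes called with age (3172) ranged from 396 (without young control liver 2) to 5327 (without old control liver 3), and those of the 10 genes from 1 to 6; with only these groups they were 1192 and 5. For knockout, DESeq2 called 7 genes against 0 by edgeR (916 at an unadjusted p under 0.05), and leaving out livers gave 0 to 3 (3 without old control liver 1). For old knockout against young (1614 genes), DESeq2 gave 2737 genes and 4 of the 10, total counts 3585 genes, only these groups 4223 genes and 4 of the 10, and leaving out livers 56 (without young control liver 2) to 1652 genes and 1 to 6 of the 10. Between guides (3 genes), DESeq2 gave 72 genes and 1 of the 10, no filter 10, only these groups 36, and leaving out livers 0. Under total counts alone the log2 value turned to 0.20 for Atf4 and 0.23 for Atf3 with age, and to 0.29 for Atf4 in old knockout against young. Leaving out livers gave, with age, -0.327 to 0.0101 for Atf4 and -0.34 to 0.25 for Atf3. For knockout the ranges were -0.38 to 0.77 for Hspa5, -0.0541 to 0.284 for Atf4, -0.22 to 0.30 for Xbp1, -0.0374 to 0.216 for Herpud1, -0.52 to 0.62 for Dnajb9, -0.0554 to 1.03 for Sdf2l1 and -0.0566 to 1.74 for Creld2. In old knockout against young they were -0.0674 to 0.158 for Ddit3 and -0.123 to 0.0514 for Atf4, and between guides -0.20 to 0.27 for Atf4, -0.16 to 0.54 for Herpud1 and -0.0617 to 1.52 for Dnajb9. For all these the cause was not tested beyond the liver or setting named. With 2 to 4 livers a group, and 1 liver setting several calls, the number of livers limits precision more than depth does for genes at high counts; Atf3 and Trib3, below 20 CPM in every liver, carry more counting error.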
